A study of Arabidopsis thaliana with 6 samples.

Results

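The transcript levels of the Aux/IAA and GH3 gene families, the classic early auxin-response genes, were followed in Arabidopsis thaliana shoots of 3 genotypes. The 36 genes were taken by locus identifier and comprised all 29 Aux/IAA genes and 7 GH3 genes (GH3.1 to GH3.6 and GH3.17) of the 32833 genes counted. LNJ-OX plants overexpressed LITTLE NINJA (LNJ), a FLAG-tagged synthetic microProtein derived from AFP2, under a doubled 35S promoter of cauliflower mosaic virus, which is active in most tissues. The jazD line is a higher-order mutant in JAZ genes, whose products repress jasmonic acid responses. Col-0 was the wild type, and LNJ-OX and jazD shared its ecotype. All plants were grown in soil under 16 h of light, received no treatment, and were harvested at 21 days with the roots cut off, with 2 libraries for each genotype. The labels do not say how many plants entered a library or how many transgenic lines the LNJ-OX libraries stand for, so the p-values below measure only the spread between these libraries.

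Auxin is perceived by TIR1/AFB F-box proteins, which in the presence of the hormone bind Aux/IAA proteins through a short degron and send them to proteolysis. Aux/IAA proteins repress the auxin response factors (ARFs), so their removal lets ARFs act on their targets. Among these targets are most Aux/IAA genes themselves, which gives a negative feedback loop. GH3 enzymes of the group studied here conjugate auxin (indole-3-acetic acid) to amino acids, which withdraws it from the active pool, and their genes are likewise auxin-inducible. Levels of both families are therefore often read as a sign of the auxin response, although several members also respond to light, to temperature or to other hormones.

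Total counts ran from 10164591 to 15003290 per library, and 21374 genes had enough counts to be tested. AFP2, the source of the LNJ fragment, was at 63.5 and 50.0 CPM (library-scaled counts, with TMM factors) in LNJ-OX, against 8.19 and 10.99 CPM in Col-0, and JAZ1 was at 3.77 and 2.83 CPM in jazD, against 29.1 and 20.1 CPM in Col-0, so the labelled genotypes showed in the counts. Leaf markers were abundant in every library, whereas the 3 root markers CASP1, COBL9 and EXPA7 summed to at most 0.861 CPM. Floral markers were present: AP1, AP3, PI and AG summed to 31.2 and 67.0 CPM in LNJ-OX, 15.8 and 21.8 CPM in jazD, and 47.0 and 64.9 CPM in Col-0. The 5 tapetum and pollen markers summed to 14.9 and 60.8 CPM in LNJ-OX, 8.07 and 8.77 CPM in jazD, and 50.7 and 46.4 CPM in Col-0. No flower, tapetum or pollen marker was at 0 in both libraries of a genotype. The harvested shoots thus differed between genotypes, and within LNJ-OX, in their floral transcripts, and in such bulk samples fewer cells of a type cannot be told apart from less RNA per cell.

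**Figure D1:**
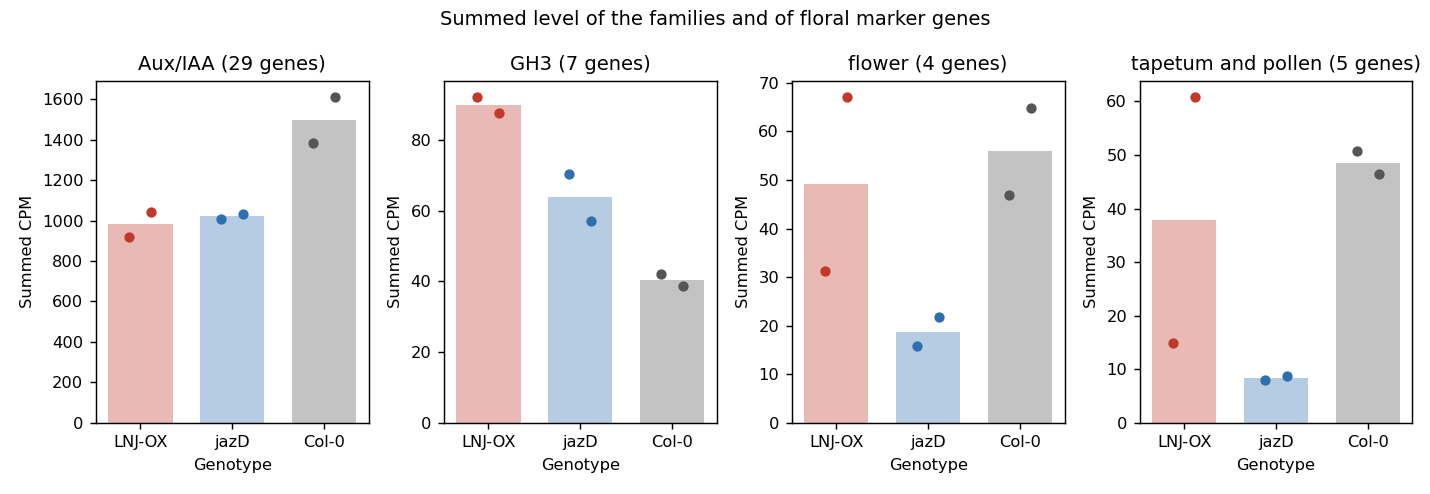
Summed level in CPM of the 29 Aux/IAA genes, the 7 GH3 genes and the 2 sets of floral marker genes in each genotype, where points are the 2 libraries and bars their mean. The Aux/IAA sum lies below Col-0 in both LNJ-OX and jazD, the GH3 sum lies above it, and the floral sums are lowest in jazD and far apart between the 2 LNJ-OX libraries.

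Summed over the family, Aux/IAA transcripts amounted to 921 and 1045 CPM in LNJ-OX (mean 983 ± 87.8, SD, n = 2), to 1010.0 and 1032 CPM in jazD (1021 ± 15.5) and to 1384 and 1610.0 CPM in Col-0 (1497 ± 160.1). The GH3 sum went the other way, with 92.1 and 87.5 CPM in LNJ-OX, 70.5 and 57.1 CPM in jazD and 42.2 and 38.6 CPM in Col-0. For neither sum did a Col-0 library fall within the range of either other genotype. Compared per kilobase of exon, 4 Aux/IAA genes stood above the rest, IAA8 (90.4 CPM per kb over all libraries), IAA16 (78.9), IAA9 (78.7) and IAA7 (77.1), followed at some distance by IAA2 (39.5). These 4 genes contributed between 52.7 and 58.6% of the Aux/IAA CPM in every library. The most abundant GH3 genes were GH3.6 (9.56 CPM per kb) and its close relative GH3.5 (8.98).

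Which auxin-response genes carried a change was asked gene by gene with the quasi-likelihood F-test of edgeR, with Benjamini-Hochberg adjustment over the 21374 genes. Calling a gene took both an absolute log2 fold change above 1 and an adjusted p below 0.01. Of the 36 members 30 could be tested, 25 Aux/IAA and 5 GH3 genes. IAA3 and IAA17 fell in LNJ-OX, which makes 2 of 30 members called in that comparison, whereas 1.42% of all genes tested were called in LNJ-OX and 0.585% were called lower. No member was called in jazD (1.11% of all genes) or between LNJ-OX and jazD (0.781%). Both calls were close to the threshold and depended on the full set of libraries, since no member was called in LNJ-OX once any 1 of the 6 libraries was left out, or when only library totals were used for scaling.

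With the threshold set at an adjusted p below 0.05 and no fold minimum, 4 of 30 members passed in LNJ-OX (4.85% of all genes did), 4 of 30 in jazD (4.13%) and 1 of 30, IAA3, between LNJ-OX and jazD (2.06%). At an unadjusted p below 0.05 the pattern was wider. In LNJ-OX 13 of the 25 tested Aux/IAA genes were lower and none was higher, where 9.40% of all genes tested were lower at that level, and all 5 tested GH3 genes were higher, where 8.97% of all genes were. In jazD 9 of 25 Aux/IAA genes were lower and none higher (8.59% of all genes lower), and 3 of 5 GH3 genes were higher (6.26% of all genes higher). The median log2 fold change of the tested Aux/IAA genes was -0.66 in LNJ-OX and -0.49 in jazD, and that of the GH3 genes 1.20 and 0.88, beside medians of -0.01 and 0.01 over all genes. In LNJ-OX 24 of 25 Aux/IAA estimates were negative (22 with library totals), and in jazD 21 of 25 were. Both LNJ-OX libraries lay below both Col-0 libraries for 18 of 25 Aux/IAA genes (23.9% of all genes), and both jazD libraries did for 16 of 25 (21.1%). Both LNJ-OX libraries lay above both Col-0 libraries for 5 of 5 GH3 genes (24.0% of all genes), and both jazD libraries did for 4 of 5 (19.5%). Without the first LNJ-OX library 2 Aux/IAA genes instead of 13 were lower at the unadjusted threshold, and without the second 7 were, each time with the lone library taken to vary like the other groups. The comparisons of LNJ-OX and jazD with the wild type share the Col-0 libraries, so their likeness is given here as values only.

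**Figure D2:**
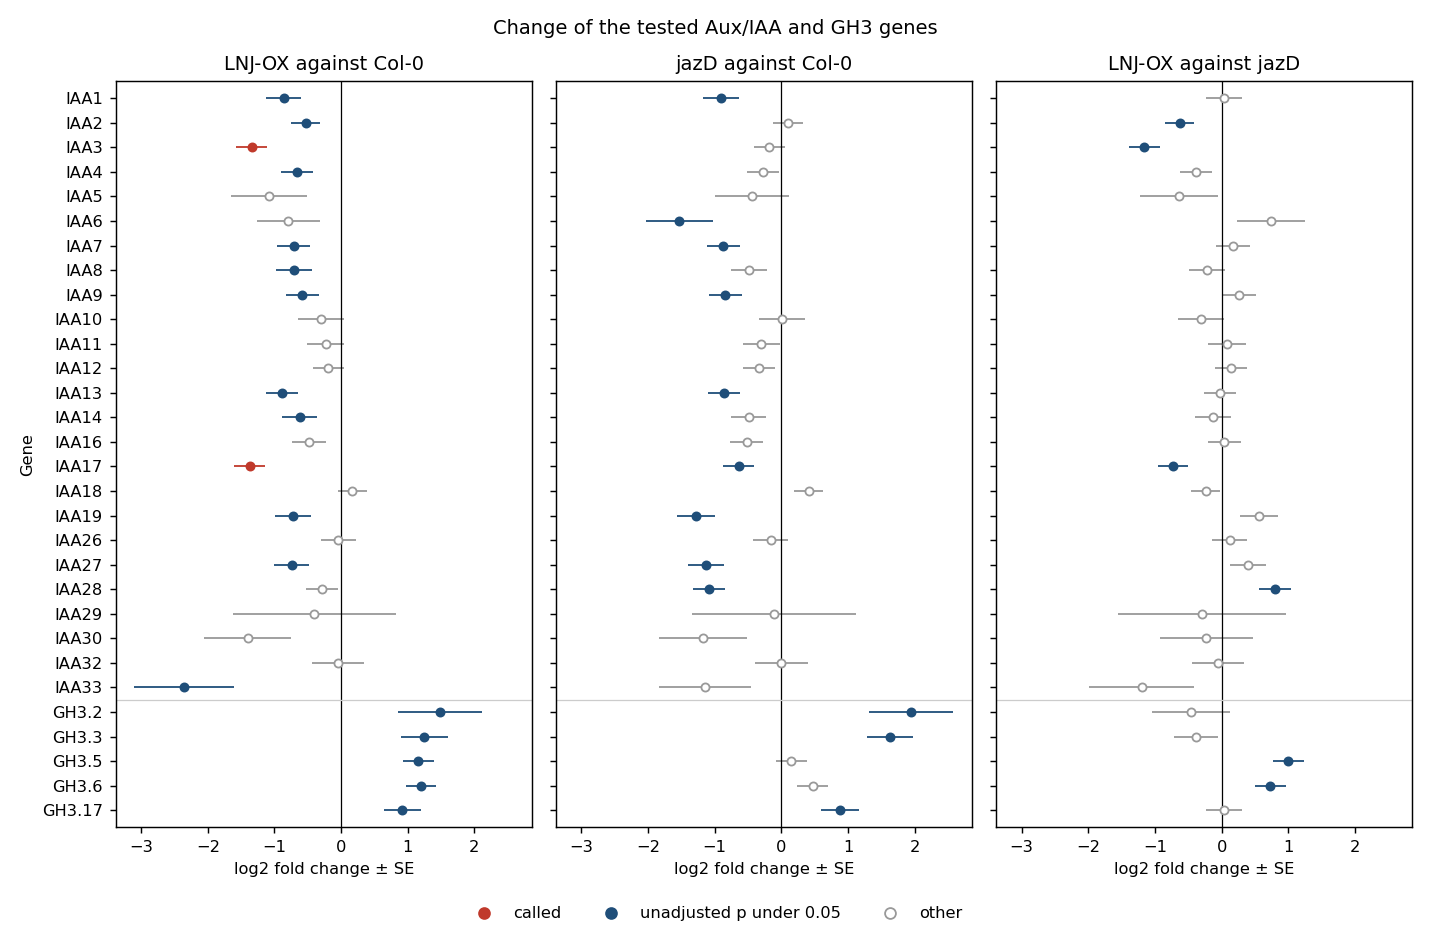
Log2 fold change of each tested member with its standard error (horizontal bar) in LNJ-OX against Col-0, jazD against Col-0 and LNJ-OX against jazD, from 1 fit of all 6 libraries. Red points were called, filled blue points had an unadjusted p below 0.05 and open grey points did not. Nearly all Aux/IAA points lie left of 0 in the first panel, and all 5 GH3 points lie right of 0 in the first and second.

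Auxin response elements in the region before a gene are bound by ARFs. To show what precedes the genes with the smallest p-values, the 300 bases upstream of the annotated start are given for IAA3 and IAA17, the called genes, for IAA19, which held the most matches of any member, and for GH3.3, GH3.5 and GH3.6. Sequences are from RefSeq (TAIR10.1) and run 5′ to 3′ toward the gene. Capitals mark 3 motifs searched on both strands: the auxin response element TGTCTC (on the other strand GAGACA), its variant TGTCGG (on the other strand CCGACA) and the palindromic G-box CACGTG.

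IAA3 upstream, chr1:1129690-1129989, minus strand: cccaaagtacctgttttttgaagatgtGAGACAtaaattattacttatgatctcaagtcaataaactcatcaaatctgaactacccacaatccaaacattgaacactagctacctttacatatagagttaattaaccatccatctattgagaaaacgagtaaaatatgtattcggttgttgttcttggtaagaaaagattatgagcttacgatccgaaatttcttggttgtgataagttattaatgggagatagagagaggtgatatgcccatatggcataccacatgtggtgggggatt

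IAA17 upstream, chr1:1135778-1136077, plus strand: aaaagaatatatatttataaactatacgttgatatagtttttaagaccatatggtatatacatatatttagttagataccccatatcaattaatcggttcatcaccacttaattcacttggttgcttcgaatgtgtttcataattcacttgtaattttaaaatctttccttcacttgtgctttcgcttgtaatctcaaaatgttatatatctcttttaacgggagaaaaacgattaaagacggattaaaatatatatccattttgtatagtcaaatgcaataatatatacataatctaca

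IAA19 upstream, chr3:5263701-5264000, plus strand: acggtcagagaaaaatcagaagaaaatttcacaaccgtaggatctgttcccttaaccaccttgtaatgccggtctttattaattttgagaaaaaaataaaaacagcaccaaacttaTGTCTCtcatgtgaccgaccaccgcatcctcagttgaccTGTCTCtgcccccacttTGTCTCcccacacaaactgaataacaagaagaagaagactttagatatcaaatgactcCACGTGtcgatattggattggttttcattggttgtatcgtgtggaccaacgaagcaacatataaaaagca

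GH3.3 upstream, chr2:9866563-9866862, minus strand: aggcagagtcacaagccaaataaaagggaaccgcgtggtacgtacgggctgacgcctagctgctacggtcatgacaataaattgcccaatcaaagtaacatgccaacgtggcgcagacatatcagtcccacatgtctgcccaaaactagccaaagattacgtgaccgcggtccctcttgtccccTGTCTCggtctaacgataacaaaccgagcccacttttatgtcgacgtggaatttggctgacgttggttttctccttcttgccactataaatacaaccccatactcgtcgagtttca

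GH3.5 upstream, chr4:13653279-13653578, plus strand: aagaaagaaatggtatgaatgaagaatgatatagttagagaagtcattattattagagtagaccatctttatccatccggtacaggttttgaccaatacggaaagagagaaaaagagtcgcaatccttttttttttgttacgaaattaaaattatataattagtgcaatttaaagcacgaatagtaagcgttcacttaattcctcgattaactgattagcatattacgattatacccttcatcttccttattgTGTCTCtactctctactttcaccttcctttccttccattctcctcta

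GH3.6 upstream, chr5:22133689-22133988, minus strand: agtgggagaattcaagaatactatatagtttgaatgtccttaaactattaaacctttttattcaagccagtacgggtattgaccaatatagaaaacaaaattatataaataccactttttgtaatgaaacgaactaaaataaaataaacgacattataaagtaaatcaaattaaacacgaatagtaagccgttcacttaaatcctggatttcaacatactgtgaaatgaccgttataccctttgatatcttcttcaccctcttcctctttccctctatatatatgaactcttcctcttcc

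TGTCTC, the canonical auxin response element, occurred in this window of 11 of 29 Aux/IAA genes (37.9%) and 3 of 7 GH3 genes (42.9%), and in 13.1% of the 32546 upstream windows searched. TGTCGG, a variant with high ARF affinity, occurred upstream of 6 Aux/IAA genes (20.7%) and none of the GH3 genes, and in 4.82% of all windows. CACGTG, the G-box that is bound by PIF and MYC factors, was found upstream of 4 Aux/IAA genes and 1 GH3 gene (6.48% of all windows). The first and second of these motifs share their first 4 letters and cannot match at the same position. In IAA19 TGTCTC stood 184, 145 and 128 bases before the start and CACGTG stood 70 bases before it. IAA3 held TGTCTC 273 bases upstream, GH3.3 held it 116 and GH3.5 47 bases upstream, and IAA17 and GH3.6 held none of the motifs in this window. The longest coding sequences of GH3.5 and GH3.6 are 84.1% identical. Whether a match in this window bears on the change of a gene was not tested.

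IAA3 (SHY2, AT1G04240) encodes the repressor that balances cytokinin and auxin action in the root meristem and was first found through short-hypocotyl mutants. Its level was 22.2 and 27.3 CPM in LNJ-OX, 51.5 and 59.0 CPM in jazD and 58.8 and 66.4 CPM in Col-0. Both LNJ-OX libraries lay well below the other 4, and the jazD values reached into the Col-0 range. IAA3 was 2.53-fold lower in LNJ-OX than in Col-0 (log2 fold change -1.34 ± 0.23, SE; adjusted p = 0.00976), and in jazD its estimate was -0.18 ± 0.23 (adjusted p = 0.839). The direct comparison gave -1.16 ± 0.23 for LNJ-OX against jazD, with an adjusted p of 0.0291 that missed the calling threshold. IAA3 is 1 of 9 members that overlap another annotated gene, and IAA9, IAA13 and IAA27 also overlap one on the opposite strand. Whether strand was used in counting is not given in the sources used here, so the reads of these members are uncertain to that extent.

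IAA17 (AXR3, AT1G04250), whose stabilised forms give strong auxin resistance, is the divergent neighbour of IAA3 on chromosome 1, with 6388 bases between the annotated genes. Its level was 25.1 and 28.1 CPM in LNJ-OX, 44.7 and 43.4 CPM in jazD and 60.2 and 77.5 CPM in Col-0. The 3 genotypes did not overlap, with jazD between the others. IAA17 was 2.59-fold lower in LNJ-OX than in Col-0 (log2 fold change -1.37 ± 0.23, adjusted p = 0.00892). In jazD it was at -0.64 ± 0.23 against Col-0 (adjusted p = 0.183), and LNJ-OX against jazD gave -0.73 ± 0.23 (adjusted p = 0.173).

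The Aux/IAA genes with the smallest p in jazD were others. IAA19 (MSG2, AT3G15540), which restrains differential growth of the hypocotyl, was at 9.81 and 9.90 CPM in LNJ-OX, 7.34 and 6.03 CPM in jazD and 14.6 and 17.9 CPM in Col-0. Its log2 fold change was -1.28 ± 0.28 in jazD (adjusted p = 0.0278) and -0.72 ± 0.27 in LNJ-OX (adjusted p = 0.173). IAA27 (AT4G29080), an Aux/IAA repressor of the same clade as IAA8 and IAA9, was at 38.4 and 55.9 CPM in LNJ-OX, 33.1 and 38.9 CPM in jazD and 68.1 and 89.8 CPM in Col-0. Both genotypes lay below the wild type for both genes, with estimates for IAA27 of -1.13 ± 0.27 in jazD (adjusted p = 0.0401) and -0.74 ± 0.26 in LNJ-OX (adjusted p = 0.152).

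IAA28 (AT5G25890), known for its gain-of-function mutant with few lateral roots, stood apart from IAA3. It was at 22.3 and 28.3 CPM in LNJ-OX, 13.7 and 15.4 CPM in jazD and 28.2 and 33.3 CPM in Col-0, so that the jazD libraries were below the other 4 while LNJ-OX overlapped Col-0. The log2 fold change was -1.08 ± 0.24 in jazD (adjusted p = 0.0332) and -0.28 ± 0.24 in LNJ-OX (adjusted p = 0.578). For LNJ-OX against jazD it was 0.80 ± 0.24 (adjusted p = 0.15), so a difference between the genotypes was not established for this gene. IAA6 (SHY1, AT1G52830), a relative of IAA19, was low throughout, with 1.84 and 1.98 CPM in LNJ-OX, 1.05 and 1.23 CPM in jazD and 2.65 and 4.04 CPM in Col-0. Its estimate in jazD was -1.53 ± 0.50 (adjusted p = 0.143), on 10 and 13 counts in the jazD libraries.

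The values of IAA1, IAA7, IAA9 and IAA13 in LNJ-OX and in jazD are set side by side here, and both are read against the same Col-0 libraries. IAA1 (AXR5, AT4G14560) was at 8.23 and 8.69 CPM in LNJ-OX, 7.76 and 8.67 CPM in jazD and 16.4 and 14.2 CPM in Col-0. Its estimates against Col-0 were -0.86 ± 0.26 in LNJ-OX and -0.90 ± 0.27 in jazD (adjusted p = 0.101 in each). IAA13 (AT2G33310), closest in coding sequence to the embryonic repressor IAA12 (BDL), was at 19.7 and 26.6 CPM in LNJ-OX, 23.9 and 23.0 CPM in jazD and 40.5 and 44.4 CPM in Col-0. For both genes LNJ-OX and jazD had nearly the same level, with direct differences of 0.04 ± 0.27 for IAA1 and -0.02 ± 0.24 for IAA13. IAA7 (AXR2, AT3G23050), whose stabilised form gives dwarf, agravitropic plants, was at 117 and 133 CPM in LNJ-OX, 115 and 108 CPM in jazD and 190.5 and 218 CPM in Col-0. IAA9 (AT5G65670), a repressor linked to leaf shape and fruit set in tomato, was at 145 and 159 CPM in LNJ-OX, 128 and 125 CPM in jazD and 222 and 232 CPM in Col-0. Of the other abundant members, IAA8 (AT2G22670) was at 137 and 156 CPM in LNJ-OX, 172 and 170.1 CPM in jazD and 201 and 280.3 CPM in Col-0, and IAA16 (AT3G04730) at 132 and 153 CPM in LNJ-OX, 136 and 140.4 CPM in jazD and 197 and 199.7 CPM in Col-0. For each of these 4 genes no LNJ-OX or jazD library reached a Col-0 library, and log2 fold changes lay between -0.48 and -0.71 in LNJ-OX and between -0.49 and -0.87 in jazD, none with an adjusted p under 0.05.

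IAA2, IAA4, IAA14 and IAA33 were lower at an unadjusted p below 0.05 in LNJ-OX, and their jazD values stand beside. IAA2 (AT3G23030) was at 39.8 and 41.0 CPM in LNJ-OX, 61.0 and 64.1 CPM in jazD and 57.1 and 59.4 CPM in Col-0, so only LNJ-OX lay below the wild type. It is the neighbour of IAA7 on chromosome 3, with 12510 bases between them, and the pair differed in jazD, where IAA7 was at -0.87 ± 0.25 and IAA2 at 0.10 ± 0.22. IAA4 (AT5G43700), a close relative of IAA1 and IAA3, was at 35.9 and 34.8 CPM in LNJ-OX, 40.0 and 52.6 CPM in jazD and 50.6 and 61.0 CPM in Col-0, with jazD overlapping Col-0. IAA14 (SLR, AT4G14550), the repressor of lateral root initiation, was at 10.14 and 12.99 CPM in LNJ-OX, 13.4 and 11.8 CPM in jazD and 19.6 and 15.8 CPM in Col-0, with estimates of -0.62 ± 0.26 in LNJ-OX and -0.49 ± 0.26 in jazD. IAA33 (AT5G57420), which lacks the degron, had the most negative estimate of any member in LNJ-OX (-2.35 ± 0.75, adjusted p = 0.112), but on few reads, with 2 and 11 counts in LNJ-OX, 11 and 13 in jazD and 48 and 24 in Col-0. The IAA33 estimate was -1.47 without the first LNJ-OX library and -4.24 without the second. In LNJ-OX against jazD, 3 of 25 tested Aux/IAA genes (IAA2, IAA3 and IAA17) were lower at an unadjusted p below 0.05 (5.41% of all genes). At that level 1 of 25 (IAA28) was higher (7.72% of all genes).

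**Figure D3:**
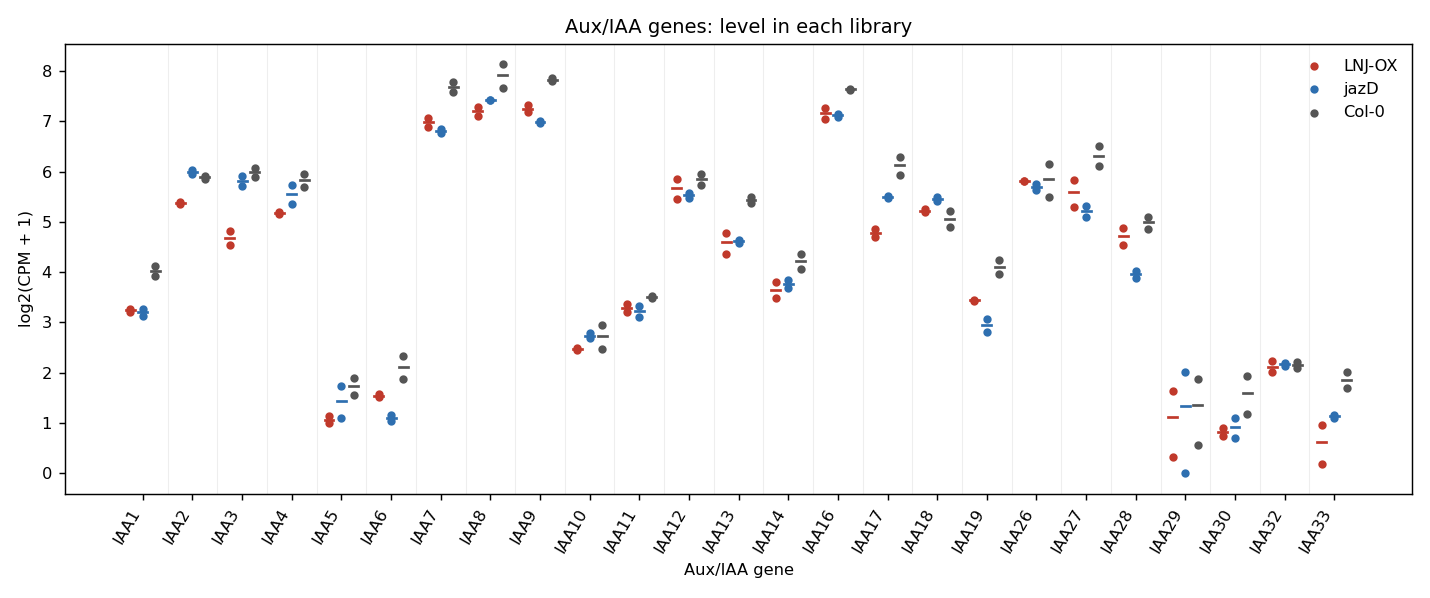
Level of the 25 tested Aux/IAA genes in each library as log2(CPM + 1), with dots for the 2 libraries of LNJ-OX, jazD and Col-0 from left to right within each gene and a dash at the mean. IAA7, IAA8, IAA9 and IAA16 are the highest and lie below Col-0 in both other genotypes, IAA3 is low in LNJ-OX only, and IAA29 is spread widely within every genotype.

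Estimates were small for 6 further genes. IAA10, IAA11, IAA12, IAA18, IAA26 and IAA32 had estimates between -0.30 and 0.17 in LNJ-OX and between -0.33 and 0.41 in jazD, and IAA18 was the only tested Aux/IAA gene with a positive estimate in LNJ-OX. IAA32 was at 3.69 and 3.01 CPM in LNJ-OX, 3.56 and 3.39 CPM in jazD and 3.65 and 3.29 CPM in Col-0, so that the 3 genotypes overlapped. IAA5 and IAA30 had few counts. Both LNJ-OX libraries lay below both Col-0 libraries for IAA5 (-1.08 ± 0.57, adjusted p = 0.348) and for IAA30 (-1.40 ± 0.65, adjusted p = 0.287), and both jazD libraries did so for IAA30 (-1.17 ± 0.66, adjusted p = 0.49). IAA29, a target of light-regulated PIF factors, differed more between libraries of a genotype than between genotypes, with 32 and 3 counts in LNJ-OX, 29 and 0 in jazD and 42 and 5 in Col-0.

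The 4 untested Aux/IAA genes were barely counted, and no fold change is given for them. IAA20 had 3 and 2 counts in LNJ-OX, 2 and 2 in jazD and 12 and 9 in Col-0, and IAA31 had 2 and 2 counts in LNJ-OX, 0 and 1 in jazD and 10 and 6 in Col-0. Both were thus lower in number outside the wild type, at a depth that does not allow a test. IAA15 had between 1 and 6 counts and IAA34 between 0 and 6 in any library. IAA20, IAA30, IAA31, IAA32, IAA33 and IAA34 are the members whose degron is missing or diverged, and all 6 were below 2 CPM per kb over all libraries. That level was not particular to them, since IAA15 (0.285) and IAA29 (1.11) were below it as well.

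All 5 tested GH3 genes had positive estimates in LNJ-OX, and so they did in jazD. GH3.5 (WES1) and GH3.6 (DFL1), which conjugate auxin to amino acids such as aspartate and limit hypocotyl growth when overexpressed, supplied between 55.2 and 74.3% of the CPM of the 7 genes in every library. GH3.5 (AT4G27260) was at 31.4 and 33.8 CPM in LNJ-OX, 17.6 and 14.9 CPM in jazD and 15.2 and 14.0 CPM in Col-0. It was 2.23-fold higher in LNJ-OX (log2 fold change 1.16 ± 0.23, adjusted p = 0.018), was at 0.15 ± 0.23 in jazD (adjusted p = 0.88), and was 2.01-fold higher in LNJ-OX than in jazD (adjusted p = 0.054). The LNJ-OX libraries were above the other 4, and jazD overlapped Col-0.

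GH3.6 (AT5G54510) was at 34.0 and 31.2 CPM in LNJ-OX, 21.3 and 18.1 CPM in jazD and 14.2 and 14.2 CPM in Col-0. No genotypes overlapped, with jazD between LNJ-OX and Col-0. The gene was 2.30-fold higher in LNJ-OX (1.20 ± 0.23, adjusted p = 0.0145), its estimate in jazD was 0.47 ± 0.23 (adjusted p = 0.395), and LNJ-OX exceeded jazD by 0.73 ± 0.23 on the log2 scale (adjusted p = 0.161). GH3.6 lies on chromosome 5 between AT5G49440 and AT5G55790, loci that had 0 counts in both jazD libraries, against 2046 and 985 counts for AT5G49440 in Col-0, and a part of that region in the GH3.6 values of jazD was not tested.

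GH3.3 (AT2G23170), a strongly auxin-inducible conjugating enzyme, was the GH3 gene with the smallest p in jazD. It was at 9.28 and 6.45 CPM in LNJ-OX, 12.1 and 8.48 CPM in jazD and 3.59 and 3.005 CPM in Col-0, without overlap between either genotype and the wild type. The log2 fold change was 1.63 ± 0.35 in jazD (3.09-fold, adjusted p = 0.0278) and 1.25 ± 0.35 in LNJ-OX (2.38-fold, adjusted p = 0.0727). GH3.2 (YDK1, AT4G37390) was at 3.82 and 2.32 CPM in LNJ-OX, 6.50 and 2.07 CPM in jazD and 0.756 and 1.503 CPM in Col-0, with estimates of 1.95 ± 0.63 in jazD (adjusted p = 0.138) and 1.48 ± 0.63 in LNJ-OX (adjusted p = 0.239). The GH3.2 estimate in jazD was 0.91 without the first jazD library and 2.56 without the second, and over all libraries left out in turn it ran between 1.05 and 2.02 in LNJ-OX. Its jazD libraries lay far apart, the lower of them near the Col-0 range, and its coding sequence is 90.9% identical to that of GH3.4, so reads could have been shared between the copies, although GH3.4 had 0 counts in every library.

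GH3.17 (VAS2, AT1G28130), which prefers glutamate as the acceptor, was at 13.6 and 13.5 CPM in LNJ-OX, 12.9 and 13.4 CPM in jazD and 8.38 and 5.82 CPM in Col-0. LNJ-OX and jazD were alike in level and both above the wild type, at 0.92 ± 0.28 in LNJ-OX (adjusted p = 0.0959) and 0.88 ± 0.28 in jazD (adjusted p = 0.129). GH3.1 had between 0 and 2 counts in any library and was not tested. In the direct comparison GH3.5 and GH3.6 were higher in LNJ-OX than in jazD at an unadjusted p below 0.05 (7.72% of all genes higher), and GH3.2, GH3.3 and GH3.17 differed by between -0.46 and 0.04.

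**Figure D4:**
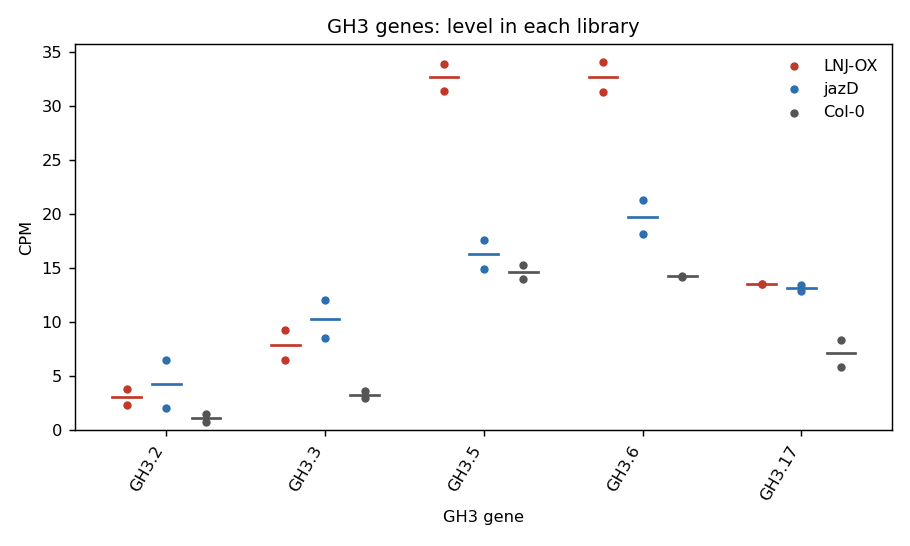
Level in CPM of the 5 tested GH3 genes in each library, with dots for the 2 libraries of LNJ-OX, jazD and Col-0 from left to right within each gene and a dash at the mean. GH3.5 and GH3.6 are highest in LNJ-OX, GH3.2 and GH3.3 have their highest library in jazD, and GH3.17 is alike in LNJ-OX and jazD.

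For both floral marker sums given above, the 2 jazD libraries lay below the 2 Col-0 libraries. The LNJ-OX libraries lay on either side of Col-0, the first low and the second high, so LNJ-OX was not separated from the wild type. AP3 and PI had adjusted p of 0.04 and 0.0429 in jazD. Of the 5 tapetum and pollen markers 3 had positive and 2 had negative estimates in LNJ-OX (median 1.07), and all 5 were negative in jazD (median -1.85). The pollen marker AGP11 was called lower in LNJ-OX (-5.00) and in jazD (-5.08). Whether floral tissue took part in the Aux/IAA or GH3 values was not tested.

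The other genes of the auxin pathway were read from lists of known components and counted at an unadjusted p below 0.05, the level at which 9.40% of all genes were lower and 8.97% higher in LNJ-OX, and 8.59% were lower and 6.26% higher in jazD. Among the receptors 1 of 6 tested genes was lower in LNJ-OX and 2 of 6 were lower in jazD at that level, counts too small to be read against the background, and none was called. AFB1, a receptor that acts in rapid auxin responses, had the smallest p of the list and was at 21.8 and 26.9 CPM in LNJ-OX, 16.1 and 16.2 CPM in jazD and 30.1 and 29.7 CPM in Col-0 (-0.88 ± 0.23 in jazD, adjusted p = 0.0617). TIR1 itself was at 0.21 ± 0.27 in LNJ-OX and 0.03 ± 0.27 in jazD. The ARF list was a selection of 15 genes that encode factors of the kind Aux/IAA proteins hold in check. Their median log2 fold changes were 0.14 in LNJ-OX and -0.03 in jazD. At an unadjusted p below 0.05, 1 of 15 was higher in LNJ-OX, none lower, and none changed either way in jazD. That gene was ARF6, a growth-promoting activator, at 69.8 and 90.7 CPM in LNJ-OX, 62.5 and 40.5 CPM in jazD and 58.0 and 42.2 CPM in Col-0.

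Of the 14 listed auxin synthesis genes 6 were tested. At an unadjusted p below 0.05, 3 were lower in LNJ-OX (9.40% of all genes) and 2 in jazD (8.59%), counts too small to be read against these shares. YUC8 went the other way, at 1.29 ± 0.66 in LNJ-OX (adjusted p = 0.34) and 0.83 ± 0.69 in jazD (adjusted p = 0.704). Among the 8 untested genes, both LNJ-OX libraries lay above both Col-0 libraries for YUC1, YUC4 and YUC5, on few counts, and the others overlapped. TAA1, the aminotransferase of the first step from tryptophan, had the smallest p of the synthesis list, at 1.05 and 1.12 CPM in LNJ-OX, 4.09 and 2.83 CPM in jazD and 3.09 and 6.48 CPM in Col-0 (-2.12 ± 0.51 in LNJ-OX, adjusted p = 0.0392). Of 12 tested transport genes 4 were lower in LNJ-OX, and in jazD 4 were lower and 1 was higher. LAX3, an influx carrier of the AUX1 family, had the smallest p of that list at 10.14 and 14.5 CPM in LNJ-OX, 12.8 and 9.80 CPM in jazD and 24.4 and 22.0 CPM in Col-0. The SAUR list was a selection of 15 genes from a family of early auxin targets and does not stand for the whole family. Of these 15 genes 8 were lower in LNJ-OX and none higher (9.40% of all genes lower). In jazD 6 of 15 were lower and 1 higher (8.59% of all genes lower). SAUR20 had the smallest p, with 2.83 and 3.79 CPM in LNJ-OX, 3.25 and 3.39 CPM in jazD and 9.51 and 11.8 CPM in Col-0 (-1.69 ± 0.34 in LNJ-OX, adjusted p = 0.0192; -1.68 ± 0.35 in jazD, adjusted p = 0.0229). SAUR19 to SAUR24 are close copies on chromosome 5, so the share of reads among them is uncertain. These copies were the 6 genes lower in jazD. The 8 genes lower in LNJ-OX were the same copies with SAUR14 and SAUR63, so both counts rest largely on this group.

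Called genes were found in the lists of auxin turnover and of the other GH3 enzymes. AT1G14120, a 2-oxoglutarate-dependent oxygenase gene next to AT1G14130, was at 1.84 and 0.172 CPM in LNJ-OX, 26.4 and 40.4 CPM in jazD and 0.630 and 0.939 CPM in Col-0, and rose in jazD by a log2 fold change of 5.43 ± 0.63 (adjusted p = 0.00154). PBS3, a GH3 enzyme of salicylic acid synthesis that does not act on auxin, was at 128 and 118 CPM in LNJ-OX, 25.9 and 17.1 CPM in jazD and 35.9 and 35.3 CPM in Col-0, and rose in LNJ-OX by 1.79 ± 0.26 (adjusted p = 0.0051). The PBS3 estimate in jazD was -0.73 ± 0.26 (adjusted p = 0.177). The 4 tested genes of the other GH3 list did not share 1 direction, with 3 estimates positive in LNJ-OX and 1 in jazD. JAR1, which makes the active jasmonate conjugate, was at -0.14 ± 0.23 in LNJ-OX and -0.71 ± 0.23 in jazD. GH3.10 was at 0.85 ± 0.29 in LNJ-OX (adjusted p = 0.135) and 1.42 ± 0.29 in jazD (adjusted p = 0.0213). GH3.9 was at 0.65 ± 0.35 in LNJ-OX and -0.04 ± 0.35 in jazD.

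**Figure D5:**
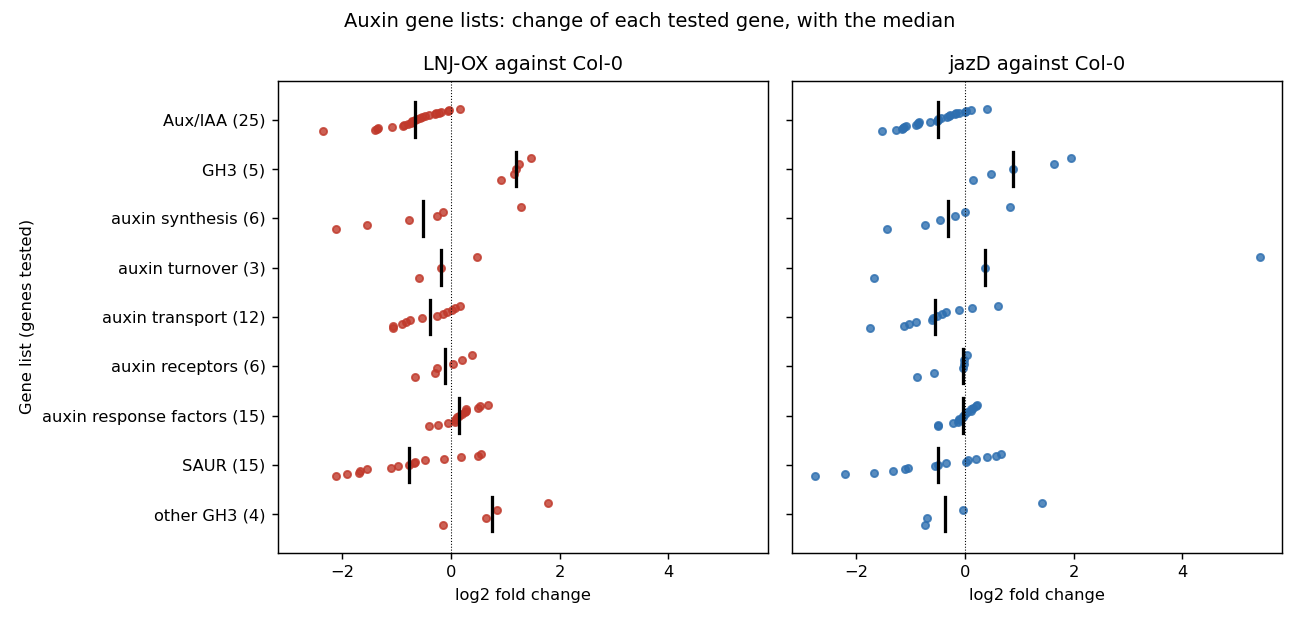
Log2 fold change of each tested gene (points) and the median (black bar) of the Aux/IAA and GH3 genes and of 7 lists of other auxin genes in LNJ-OX against Col-0 and jazD against Col-0, with the number of genes tested in brackets. The ARF and receptor medians lie near 0 in both genotypes, the Aux/IAA, SAUR, synthesis and transport medians lie below it, and the GH3 medians lie above it. The medians of auxin turnover and of the other GH3 genes differ in sign between the genotypes.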

How the data were processed

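RNA of 6 libraries, 2 for each of LNJ-OX, jazD and Col-0, was analysed from the read counts per gene that the authors deposited for each library, which are whole numbers and were not normalized. Per the labels, the submitters' processing notes name Trim Galore 0.6.3, HISAT2 2.1.0, HTSeq 0.9.1, limma 3.38.3 and the build TAIR10. The annotation, the strand setting and the treatment of reads with several placements are not given in the sources used here. The authors also deposited tables of their limma-voom comparisons (log2 fold changes and p-values), which were not used. Groups were taken from the sample titles, since 1 jazD genotype label is misspelled. The labels give plants of 21 days without roots, whereas the study's methods speak of leaves, and the labels were followed.

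Counts were fitted with edgeR 4.0.16 in R 4.3.3 (filterByExpr, TMM factors, glmQLFit, glmQLFTest), with all 6 libraries in 1 fit, so that the genotypes shared an estimate of the spread (biological coefficient of variation 0.232). After filtering, 21374 genes were tested. Their p-values were adjusted by the Benjamini-Hochberg method over all genes tested, standard errors were taken from the F statistic, and CPM were computed with TMM factors. The fit was tested on simulated data. Chi-square per degree of freedom between the 2 libraries of a genotype ran from 15.56 to 45.24, so the libraries within a genotype were not copies of each other. Libraries of different genotypes were not compared in this way. Names, exon lengths and upstream sequences came from the RefSeq annotation of TAIR10.1, which named 32548 of 32833 loci and all 36 members. Motifs were searched on both strands with Python 3.11.15. Coding identity was computed with biopython 1.88 between the longest coding sequences.

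The members and the gene lists were chosen with earlier results of these data known. Values per library are given for members called or with an unadjusted p below 0.05 in any comparison and for the 3 Aux/IAA genes and 1 GH3 gene with the highest level per length. Genes of other lists are named when called, or else the 1 with the smallest p. IAA18, IAA32, TIR1, YUC1, YUC4, YUC5, YUC8, JAR1, GH3.9, GH3.10, SAUR14, SAUR63, the copies of SAUR20, JAZ1, AFP2, AT5G49440, AT5G55790 and the low-count genes were named after their values were seen. Alternatives were DESeq2 1.42.0, voom weights in limma 3.58.1, RLE factors, scaling by totals alone, all genes without filtering, a minimum of 1 CPM in 2 libraries, fits of 4 libraries, the replicate number as a block, other thresholds and removal of each library.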

Additional observations from a re-analysis of the deposited data

Results flagged for a closer look

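Of the auxin genes examined, 2 were called between LNJ-OX and jazD (adjusted p below 0.01, absolute log2 fold change above 1) in the direct test. In that comparison 0.781% of all genes tested were called. The 2 calls were 1 of 3 tested turnover genes and 1 of 4 tested genes of the other GH3 list, and none of the 30 tested members. Neither called gene is an Aux/IAA gene or an auxin-conjugating GH3 gene. IAA3 missed that threshold in the same edgeR test, with an estimate of -1.16 and an adjusted p of 0.0291. AT1G14120 was lower in LNJ-OX than in jazD with an edgeR estimate of -4.95 on the log2 scale (adjusted p = 0.00145), with 1.84 and 0.172 CPM in LNJ-OX and 26.4 and 40.4 CPM in jazD. PBS3 was higher in LNJ-OX than in jazD by 2.52 (adjusted p = 0.000662), with 128 and 118 CPM in LNJ-OX and 25.9 and 17.1 CPM in jazD.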

How the results depend on the processing

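No log2 fold change of a member with an unadjusted p below 0.05 turned its direction under any alternative run. In LNJ-OX the 2 members called became 1 with RLE factors and 1 with limma-voom (IAA17 in both), 0 with library totals and in the fit of 4 libraries, 4 without a filter and 4 with DESeq2 (GH3.5 and GH3.6 added), and, with no fold minimum, 4 at an adjusted p below 0.05 and 18 when the p was left unadjusted. Leaving out 1 library gave between 0 and 0 members, with the adjusted p of IAA3 between 0.0205 and 0.139 and that of IAA17 between 0.0178 and 0.111. In jazD the count of 0 became 5 without a filter, 2 with DESeq2, 4 at an adjusted p below 0.05 and 12 when it was left unadjusted. Between LNJ-OX and jazD it became 1 without a filter, with DESeq2 and at an adjusted p below 0.05 (IAA3 each time), and 6 with unadjusted p-values. Without the filter the median over 29 Aux/IAA genes was -0.71 in LNJ-OX and -0.52 in jazD.

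Of all genes, 304 were called in LNJ-OX, 238 in jazD and 167 between them. DESeq2 gave 822, 718 and 502, no filter 1398, 1310 and 939, adjusted p-values below 0.05 alone 1037, 882 and 441, and unadjusted ones 3927, 3175 and 2808. Fits of 4 libraries gave 170 in LNJ-OX and 578 in jazD, and library totals and limma-voom gave 143 each in jazD. Leaving out 1 library gave 11 (without Col-0 replicate 1) to 478 (without LNJ-OX replicate 2) in LNJ-OX, 32 (without Col-0 replicate 1) to 592 (without LNJ-OX replicate 2) in jazD, and between 52 (without jazD replicate 2) and 236 (without Col-0 replicate 2) in the direct comparison. The cause was not tested.

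Libraries with the same replicate number deviated together little over all genes (correlations of 0.0891, 0.0587 and -0.00281). Such correlations over all genes cannot decide whether the numbers pair the samples, since a shared deviation of some genes would hardly show in them. With the replicate number as a block 670, 654 and 355 genes were called, against 304, 238 and 167 without it. Among the members 3 were then called in LNJ-OX (GH3.6 added) and 1 in jazD (GH3.3).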

Other observations

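IAA29 was the member with the widest spread within a genotype. The first library of each genotype had 32 counts in LNJ-OX, 29 in jazD and 42 in Col-0, and the second had 3 in LNJ-OX, 0 in jazD and 5 in Col-0. For this gene the libraries with the same replicate number thus deviated in the same direction, although over all genes they deviated together little.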
